A study of Mus musculus with 503 samples.

Results

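The genes that turn over extracellular nucleotides or handle phosphate were followed in single perivascular cells of the mouse spinal cord. The set holds 10 of the 56701 gene rows of the count table: the ectonucleotidases *Enpp1*, *Enpp2*, *Nt5e*, *Entpd1* and *Entpd2*, the phosphatase *Alpl*, the phosphate importers *Slc20a1* and *Slc20a2*, the phosphate exporter *Xpr1*, and *Mgp*, a secreted inhibitor of calcification. *Enpp1* was chosen by its measured difference between the sorted populations in these same cells, so its difference between them is a description and supports nothing, and the other genes were added for their place in the pathway. All 10 genes had a count in each of the 4 groups.

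The cells came from mice of genotype GLAST-CreERT2;R26R-tdTomato;Pdgfrb-eGFP, so every cell, uninjured or injured, carried the tamoxifen-inducible Cre, the Cre-dependent tdTomato reporter and the EGFP reporter. The sample labels give female mice, whereas the study's reporting form gives both sexes for sequencing. Cells were sorted with tdTomato (tdTomato+EGFP+) or without it (tdTomato-EGFP+), from uninjured cord or from the crushed segment at day 3 after a complete thoracic crush, and their RNA was read by Smart-seq3, a full-length method. TdTomato marks cells in which the GLAST (*Slc1a3*) promoter drove Cre when tamoxifen was given, so tdTomato-EGFP+ cells can include cells of that lineage without recombination. The series text gives day 5 where the sample labels give day 3, and the labels were followed.

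Extracellular ATP is cut in steps. ENTPD1 and ENTPD2 remove its terminal phosphates, ENPP1 cuts it to AMP and pyrophosphate, and NT5E (CD73) turns AMP into adenosine, which signals through its own receptors on vascular and immune cells. Pyrophosphate blocks the growth of calcium phosphate crystals until tissue-nonspecific alkaline phosphatase, the product of *Alpl*, hydrolyses it to phosphate. ENPP2 (autotaxin) belongs to the ENPP family but makes the lipid lysophosphatidic acid. Cells take up phosphate through SLC20A1 and SLC20A2 and release it through XPR1. Mutations of the genes for SLC20A2, XPR1, PDGFRB and PDGFB cause familial calcification of small brain vessels, in which mural cells are thought to take part.

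After filtering, 468 of 503 cells remained, with 25645409 to 38406035 counts in total per group. No label names an animal, so each group is 1 sample, no difference has a replicate check and no test was made. Levels are the counts summed over a group and scaled to a total of 1000000 (CPM), with 95% Poisson intervals that cover counting error only. Plates 209 and 213 held 65 and 72 uninjured tdTomato+EGFP+ and 46 and 60 uninjured tdTomato-EGFP+ cells. Plates 211 and 215 held the injured cells, 88 and 34 of them tdTomato+EGFP+ and 58 and 45 tdTomato-EGFP+, so plate and injury cannot be told apart. The 34 cells were shallow, with 14770 counts in the median cell, and plate 211 held 94.6% of the counts of their group. The labelled cell type was checked by marker lists. The summed level of 10 pericyte markers was 11248, 12356 and 11433 CPM in uninjured tdTomato+EGFP+, uninjured tdTomato-EGFP+ and injured tdTomato-EGFP+ cells, and 759.9 CPM in injured tdTomato+EGFP+ cells. In the last group 8 perivascular fibroblast markers summed to 22112 CPM, against 2102 to 9345 CPM in the others. The 6 endothelial markers, all 6 with counts in every group, summed to 4635 and 5102 CPM in the uninjured sorts and to 373 and 1720.1 CPM in the injured ones, although cells with more *Pecam1* than *Pdgfrb* had been removed.

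In the sums, a gene counted as past the fold where its difference of log2(CPM + 1) was 1 or more, its higher group had 10 CPM or more, and both plates (between sorts) or all 4 plate pairs (between states) gave the same direction. Between uninjured sorts, 3 of 10 members were past the fold, all higher in tdTomato+EGFP+ cells, against a background of 4.31% of 11198 genes in that direction and 3.61% in the other. Between injured sorts, 2 members were past it in the higher direction (background 4.31%) and 4 in the lower (background 17.9%). *Enpp1*, chosen by its difference between sorts, is among the 3 and among the 2, so nothing is read from these counts. With injury, 2 members were higher and 5 lower in tdTomato+EGFP+ cells (background 10.8% and 34.3%), and 4 were higher and 5 lower in tdTomato-EGFP+ cells (background 9.52% and 16.98%).

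The median member difference was 0.50 between uninjured sorts, -0.61 between injured sorts, -1.82 with injury in tdTomato+EGFP+ cells and -0.35 with injury in tdTomato-EGFP+ cells. Over all genes at 10 CPM the medians of the same differences were 0.01, -0.32, -0.59 and -0.20. Scaling by TMM instead of by the total moved the median gene by -0.01, 0.38, 0.68 and 0.29 in the same order, and DESeq2 size factors moved it by -0.05, 0.53, 0.82 and 0.24. Of all genes past the fold, the share that was higher went from 19.4% to 43.9% (TMM) or 56.04% (DESeq2) between injured sorts. It went from 23.997% to 54.8% or 61.6% with injury in tdTomato+EGFP+ cells and from 35.9% to 56.9% or 53.7% with injury in tdTomato-EGFP+ cells. No member changed direction with either. Under both, *Nt5e* left the calls between uninjured sorts and joined those with injury in tdTomato+EGFP+ cells, and *Entpd1* and *Xpr1* left those with injury in tdTomato-EGFP+ cells. DESeq2 factors also brought in *Mgp* with injury in tdTomato+EGFP+ cells.

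**Figure D1:**
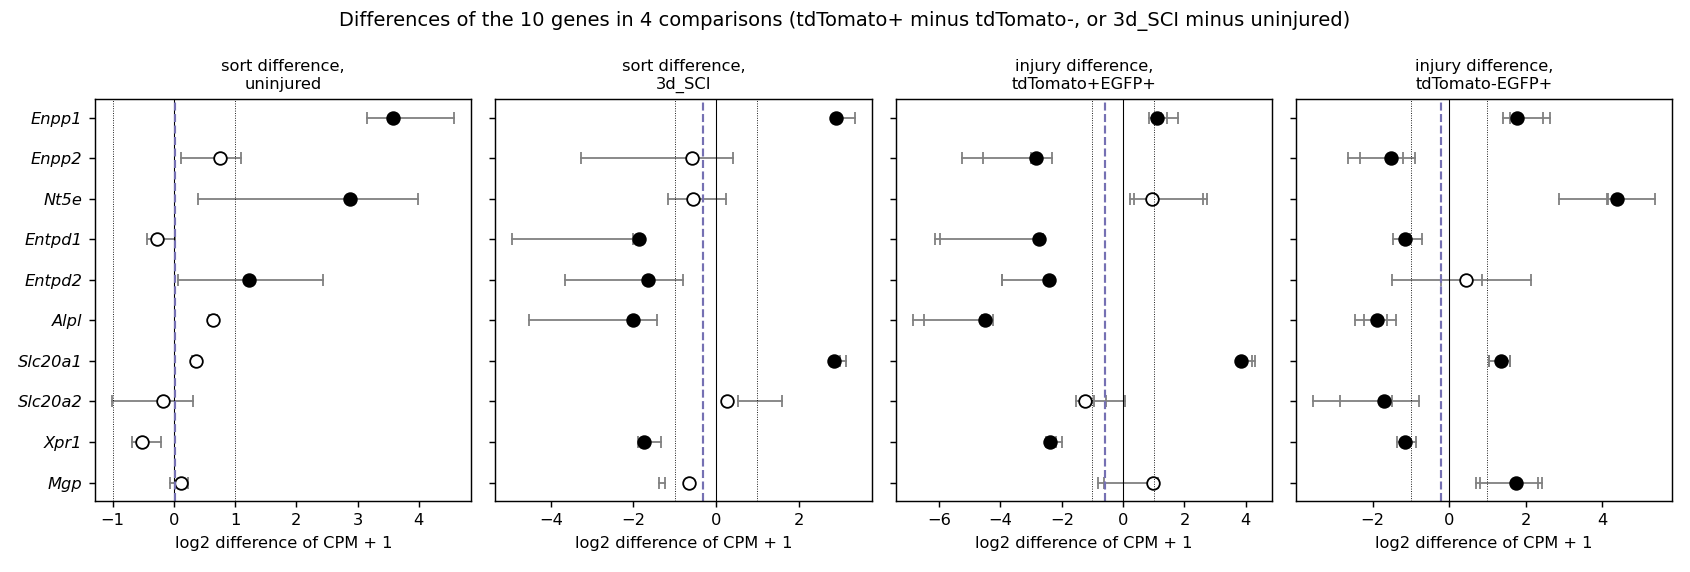
Difference of log2(CPM + 1) of each gene (rows) in the 4 comparisons (panels). Circles are the summed groups, filled where past the fold, grey ticks the single plates or plate pairs, dotted lines a difference of 1 and the dashed line the median of all genes. *Enpp1* lies right of 1 in all panels, and *Slc20a1* and *Alpl* lie on opposite sides in both injury panels.

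The rows are named by gene symbol. In the GENCODE vM21 annotation of GRCm38, the assembly also called mm10 and the build named in the submitters' processing notes, all 10 are protein-coding genes. *Enpp1* is at chr10:24637914-24712159 on the minus strand, *Slc20a1* at chr2:129198764-129211616 on the plus strand and *Alpl* at chr4:137741733-137796384 on the minus strand. The others are *Enpp2* (chr15:54838901-54952892), *Nt5e* (chr9:88327197-88372092), *Entpd1* (chr19:40612366-40741602), *Entpd2* (chr2:25395874-25401321), *Slc20a2* (chr8:22476788-22569612), *Xpr1* (chr1:155275701-155417415) and *Mgp* (chr6:136872435-136875823).

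RefSeq promoter entries (GRCm38.p6) matched 7 of the 10 genes. Those of the 3 genes on which the injury comparisons turn are shown as the 250 bases before the annotated start, 5′ to 3′ on the gene's strand, to show what stands upstream of genes that differed in opposite directions. Capitals mark matches, on either strand, to the TATA box motif TATAAA, the AP-1 motif TGANTCA, the CRE motif TGACGTCA, the GC box motif GGGCGG and the E-box motif CACGTG. They cover chr10:24712160-24712409 for *Enpp1*, chr2:129198523-129198772 for *Slc20a1* and chr4:137796385-137796634 for the upstream entry of *Alpl*. *Slc20a1* and *Alpl* each have a second entry, not printed.
Enpp1: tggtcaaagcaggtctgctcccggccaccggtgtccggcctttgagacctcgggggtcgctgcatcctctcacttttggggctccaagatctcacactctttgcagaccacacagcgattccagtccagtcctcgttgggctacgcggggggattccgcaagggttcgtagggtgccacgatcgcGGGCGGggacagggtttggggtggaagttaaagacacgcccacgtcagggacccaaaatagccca
Slc20a1: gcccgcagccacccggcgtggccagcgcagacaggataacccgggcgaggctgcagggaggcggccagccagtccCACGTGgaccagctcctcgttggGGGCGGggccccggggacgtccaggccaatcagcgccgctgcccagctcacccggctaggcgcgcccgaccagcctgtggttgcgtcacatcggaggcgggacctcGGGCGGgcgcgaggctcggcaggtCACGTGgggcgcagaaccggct
Alpl: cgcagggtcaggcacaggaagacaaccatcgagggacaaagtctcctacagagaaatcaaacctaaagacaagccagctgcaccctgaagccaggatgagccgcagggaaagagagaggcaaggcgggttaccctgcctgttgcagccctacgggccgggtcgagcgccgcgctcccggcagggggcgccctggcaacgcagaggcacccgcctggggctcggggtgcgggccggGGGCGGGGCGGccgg
*Slc20a1* held 2 E-boxes and 2 GC boxes, *Enpp1* 1 GC box and *Alpl* 2 overlapping GC boxes. Of 32851 RefSeq promoters, 32.7% hold a GC box and 6.02% an E-box in the same window. None of the 3 windows holds the letters TATAAA or those of AP-1 or CRE, which are in 12.4%, 6.75% and 1.55% of promoters. The G and C content was 61.2% for *Enpp1*, 75.2% for *Slc20a1* and 68.4% for *Alpl*.

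*Enpp1*, which makes pyrophosphate, was highest in injured tdTomato+EGFP+ cells at 401 CPM (interval 394 to 408), then in uninjured tdTomato+EGFP+ cells at 186.9 CPM (182.6 to 191.3), injured tdTomato-EGFP+ cells at 52.4 CPM (49.7 to 55.3) and uninjured tdTomato-EGFP+ cells at 14.7 CPM (13.3 to 16.3). On plates the levels were 391 and 581 CPM, 165.9 and 216 CPM, 49.1 and 55.5 CPM, and 8.11 and 17.9 CPM in the same order. No neighbours in this order overlapped between plates. The difference between sorts was 3.58 in uninjured (plates 3.15 and 4.58) and 2.91 in injured cells (plates 2.97 and 3.36). The injury difference was 1.10 in tdTomato+EGFP+ (plate pairs 0.85 to 1.80, and 0.89 without plate 213) and 1.76 in tdTomato-EGFP+ cells (1.41 to 2.63).

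Few uninjured cells carried these *Enpp1* counts. In uninjured tdTomato+EGFP+ cells the lowest and the median cell had 0 CPM and the highest 2578 CPM, and 19 cells (13.9%) reached 100 CPM. A single cell held 78.8% of the *Enpp1* counts of uninjured tdTomato-EGFP+ cells. Without it the group stood at 3.16 CPM, and without the top cell of each group the difference between uninjured sorts was 5.16. After injury the median tdTomato+EGFP+ cell had 374 CPM and 97 cells (79.5%) reached 100 CPM, against a median of 2.69 CPM and 23 cells (22.3%) in tdTomato-EGFP+. With every cell thinned to 20000 counts, 90% of injured tdTomato+EGFP+ cells had an *Enpp1* count (exact binomial interval 82.4 to 95.1) and 33.3% of injured tdTomato-EGFP+ cells (24.3 to 43.4). The shares in uninjured cells were 19.7% (13.2 to 27.7) and 5.43% (1.79 to 12.2), and before thinning they were 37.96% and 20.8%. Of 18 smooth muscle-like cells, a class with an *Enpp1* level of 1.08 CPM, 1 had a count after thinning (5.56%), and 2 uninjured tdTomato-EGFP+ cells reached 100 CPM.

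**Figure D2:**
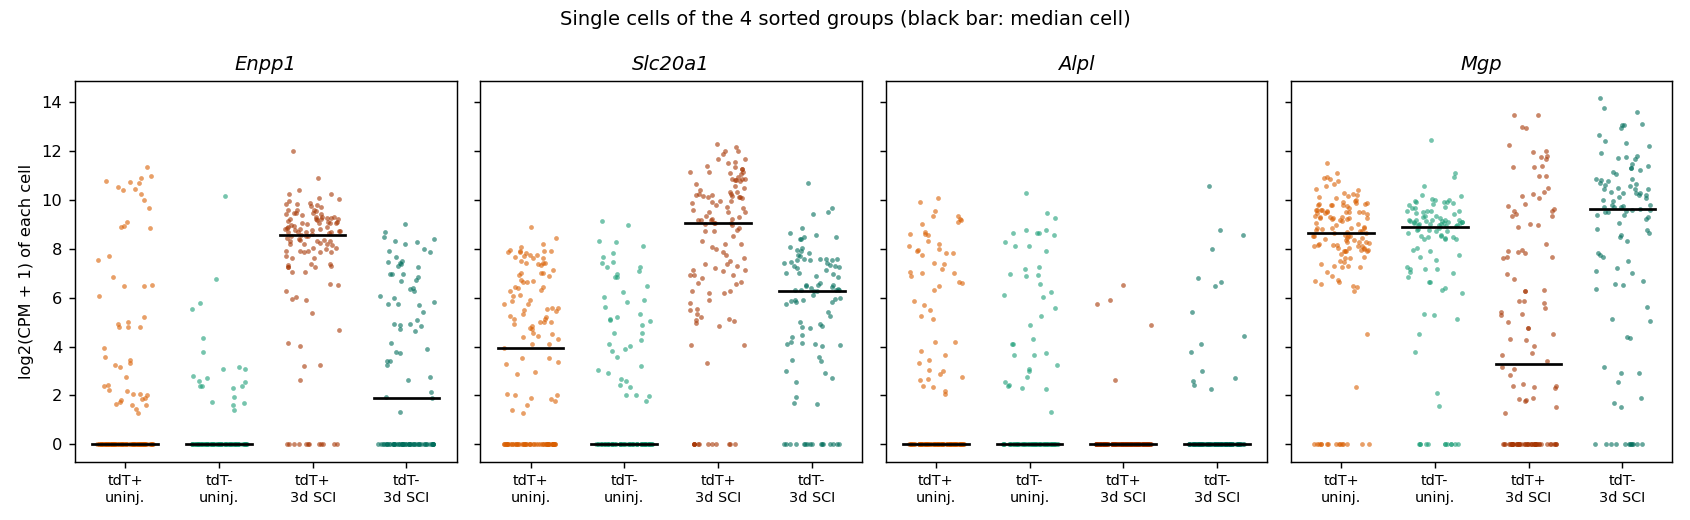
Level of 4 genes in each kept cell, as log2(CPM + 1), by sorted group (tdT+ and tdT- for the sorts). Points are cells and black bars the median cell. *Enpp1* is above 0 in a minority of uninjured cells and in most injured tdTomato+EGFP+ cells, *Slc20a1* is higher in injured cells of both sorts, *Alpl* is nearly empty in injured tdTomato+EGFP+ cells, and *Mgp* of that group splits into high and empty cells.

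Cells were clustered with the 10 genes and their pathway lists left out of the variable genes, and the clusters were read against fixed marker lists. Cluster 4 (71 cells, perivascular fibroblast-like, 8 of 8 markers raised), cluster 5 (48 cells, pericyte-like, 7 of 10 pericyte and 4 of 7 activated stroma markers) and cluster 6 (18 cells, vascular smooth muscle-like, 5 of 6) could be named. Cluster 5 held 47 injured tdTomato-EGFP+ cells, 1 injured tdTomato+EGFP+ cell and 0 uninjured cells. Cluster 6 held 14 uninjured tdTomato-EGFP+, 3 uninjured tdTomato+EGFP+ and 1 injured tdTomato-EGFP+ cell. In these 2 clusters the class cannot be told apart from injury state. Cluster 1, led by the cycling genes *Ube2c*, *Ccnb1* and *Top2a*, held 99 injured tdTomato+EGFP+, 18 injured tdTomato-EGFP+, 11 uninjured tdTomato+EGFP+ and 10 uninjured tdTomato-EGFP+ cells and was left unnamed. Clusters 2 and 3, with 61 and 36 uninjured tdTomato+EGFP+, 50 and 24 uninjured tdTomato-EGFP+ and few injured cells, were left unnamed too, since in them pericyte markers and 6 of 6 endothelial markers were raised together. *Bmx* and *Sema3g*, known from arterial endothelium, led cluster 3, and *Alpl* was itself among its leading genes.

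*Enpp1* stood at 472 CPM in the fibroblast-like cells and 359 CPM in cluster 1, against 18.7 CPM in pericyte-like, 1.08 CPM in smooth muscle-like cells and 3.63 and 4.94 CPM in clusters 2 and 3. Of all *Enpp1* counts of uninjured tdTomato+EGFP+ cells, 98.4% were in the 26 fibroblast-like cells. In cells of that class the level was 801 CPM (782 to 819) in uninjured and 361 CPM (344 to 379) in injured tdTomato+EGFP+ cells, the reverse of the order in the sums. On plates these were 609.8 and 1193 CPM before injury and 339 and 721 CPM after it, so the plates overlapped. The fibroblast-like tdTomato-EGFP+ cells stood at 153.4 CPM, with 99.4% of the counts in 1 of 8 cells, and at 117.4 CPM after injury. Fibroblast-like cells were 18.98% of uninjured tdTomato+EGFP+ cells (interval 12.8 to 26.6) and 7.55% of uninjured tdTomato-EGFP+ cells (3.31 to 14.3). They were 15.6% of injured tdTomato+EGFP+ cells (9.64 to 23.2). Cluster 1 was 81.1% of that injured group (73.1 to 87.7), with *Enpp1* at 415 CPM (407 to 423). In cluster 1, 6 of 8 fibroblast, 5 of 7 activated stroma and 2 of 6 smooth muscle markers were raised, besides 6 of 6 cycling markers. In the sums, a change in the number of cells of a class and a change in the RNA of each cell cannot be told apart.

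**Figure D3:**
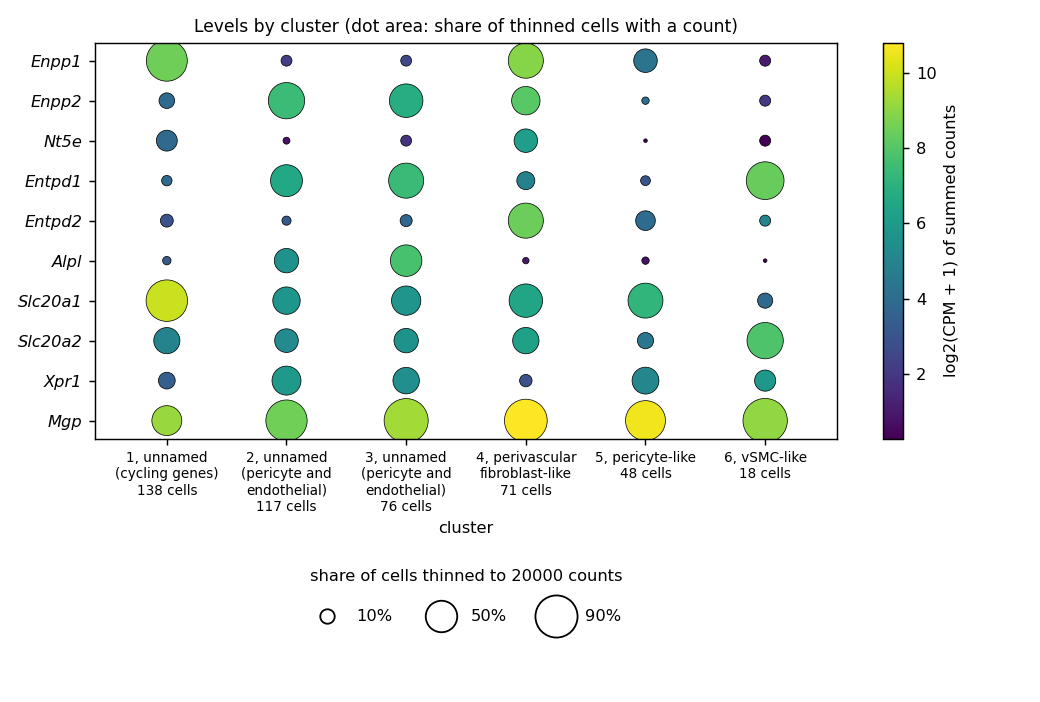
Level of the 10 genes (rows) in the 6 clusters (columns). Colour is log2(CPM + 1) of the summed counts and dot area the share of cells, thinned to 20000 counts, with a count. *Enpp1* and *Entpd2* are highest in the fibroblast-like cells, *Entpd1* and *Slc20a2* in the smooth muscle-like cells, *Alpl* in cluster 3 and *Slc20a1* in cluster 1.

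*Entpd2*, an enzyme that turns ATP into ADP, had levels of 116.6 CPM (113.2 to 120.1) in uninjured tdTomato+EGFP+, 49.7 CPM (47.02 to 52.4) in uninjured tdTomato-EGFP+, 21.01 CPM (19.4 to 22.7) in injured tdTomato+EGFP+ and 68.2 CPM (65.04 to 71.5) in injured tdTomato-EGFP+ cells. Uninjured tdTomato-EGFP+ plates spanned 20.9 to 110.5 CPM and overlapped those of both injured sorts, their neighbours in level. A single cell held 51.4% of the counts of that group, which stood at 24.5 CPM without it. With injury it differed by -2.42 in tdTomato+EGFP+ cells (plate pairs -3.96 to -2.36) and 0.45 in tdTomato-EGFP+ cells (-1.48 to 2.13), the latter 1.06 without the top cell of each group. The fibroblast-like class held 92.7% of the counts of uninjured tdTomato+EGFP+ cells, at 470.0 CPM, and *Entpd2* stood at 102.8 CPM in injured tdTomato+EGFP+ and 310.4 CPM in injured tdTomato-EGFP+ cells of that class. A count of both *Entpd2* and *Enpp1* was found in 15 thinned uninjured tdTomato+EGFP+ cells (11.8%), out of 25 with *Enpp1* and 24 with *Entpd2*, and in 1 thinned uninjured tdTomato-EGFP+ cell, out of 5 and 11. After injury it was found in 10 tdTomato+EGFP+ cells (10%), out of 90 and 13, and in 6 tdTomato-EGFP+ cells (5.88%), out of 34 and 22.

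*Entpd1* (CD39), which takes ATP to AMP, went with other cells. Its level was 103.4 CPM (100.2 to 106.6) and 125.8 CPM (121.6 to 130.1) in uninjured tdTomato+EGFP+ and tdTomato-EGFP+ cells, whose plates overlapped, and was 14.6 CPM (13.3 to 16.1) and 56.3 CPM (53.4 to 59.3) after injury. Its injury difference was -2.74 in tdTomato+EGFP+ (plate pairs -6.12 to -2.60) and -1.15 in tdTomato-EGFP+ cells (-1.47 to -0.72), the latter -0.94 without plate 213 and -0.93 without plate 215. A single cell held 71.9% of the *Entpd1* counts of injured tdTomato+EGFP+ cells. Without it the group stood at 4.18 CPM, and without the top cell of each group the injury difference was -4.25. The smooth muscle-like cells had 328 CPM, and the 14 of them that were uninjured tdTomato-EGFP+ cells had 415 CPM with 43.3% in 1 cell. Clusters 2 and 3 had 94.4 and 167.7 CPM, against 28.3 CPM in the fibroblast-like cells.

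*Nt5e*, also a surface marker of mesenchymal cells, was low in all groups: 10.7 CPM (9.69 to 11.8) and 0.595 CPM (0.3401 to 0.966) in uninjured, and 21.6 CPM (20.05 to 23.3) and 32.4 CPM (30.2 to 34.6) in injured tdTomato+EGFP+ and tdTomato-EGFP+ cells. The injured sorts overlapped between plates (19.7 and 21.8 CPM against 18.2 and 45.2 CPM). Its injury difference in tdTomato-EGFP+ cells was 4.39 (plate pairs 2.87 to 5.38), from 16 counts before injury, 75% of them in 1 cell, and 3.90 without the top cell of each group. A single cell also held 51.3% of the injured tdTomato-EGFP+ counts (16.1 CPM without it), and the difference between injured sorts went from -0.56 to 0.01 without the top cells. The difference between uninjured sorts was 2.87 but 0.39 on plate 209, where the sorts had 2.43 and 1.62 CPM. Without the top cells uninjured tdTomato+EGFP+ cells stood at 7.65 CPM, under the 10 CPM that a call needs. The fibroblast-like cells held 82.8% of the injured tdTomato-EGFP+ counts, at 142.4 CPM, with 62.01% in 1 cell. *Nt5e* and *Enpp1* were found together in 18 thinned injured tdTomato+EGFP+ cells (18%), out of 23 with *Nt5e* and 90 with *Enpp1*. In thinned injured tdTomato-EGFP+ cells this was 12 (11.8%), out of 15 and 34. Before injury it was 1 cell, out of 8 and 25, and 0 cells, out of 2 and 5. Whether joint detection exceeds what the single shares give was not tested.

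*Enpp2* (autotaxin) was lower after injury in both sorts. It stood at 223 CPM (218 to 228) and 132.5 CPM (128.2 to 136.9) in uninjured tdTomato+EGFP+ and tdTomato-EGFP+ cells and at 30.6 CPM (28.7 to 32.6) and 45.8 CPM (43.2 to 48.5) in injured ones. With injury it differed by -2.83 in tdTomato+EGFP+ (plate pairs -5.26 to -2.33) and -1.51 in tdTomato-EGFP+ cells (-2.64 to -0.89), the latter no longer past the fold without plate 211 (65.8 CPM after injury). The injured sorts overlapped between plates, and the difference of 0.75 between uninjured sorts did not reach the fold. Uninjured tdTomato+EGFP+ cells of the fibroblast-like class had 461 CPM, with 101.2 CPM on plate 209 and 636 CPM on plate 213, and clusters 2 and 3 had 176.03 and 112.2 CPM over all groups.

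*Alpl*, which opposes *Enpp1* by removing pyrophosphate, showed the largest injury difference of the 10 genes in tdTomato+EGFP+ cells. It stood at 104.4 CPM (101.2 to 107.6) in uninjured tdTomato+EGFP+, 66.9 CPM (63.9 to 70.1) in uninjured tdTomato-EGFP+, 17.4 CPM (15.8 to 19.1) in injured tdTomato-EGFP+ and 3.597 CPM (2.96 to 4.33) in injured tdTomato+EGFP+ cells. Plates did not overlap between any of these neighbours, and on plate 215 injured tdTomato+EGFP+ cells had 0 *Alpl* counts (interval up to 2.199 CPM). Of the *Alpl* counts of that group 41.96% were in 1 cell, and *Alpl* stood at 2.12 CPM without that cell. The injury difference was -4.52 (plate pairs -6.86 to -4.23) in tdTomato+EGFP+ and -1.89 (-2.45 to -1.39) in tdTomato-EGFP+ cells. The difference between uninjured sorts was 0.63 (plates 0.57 and 0.71).

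*Alpl* lay in the cells that carried endothelial transcripts. The summed level of the 6 endothelial markers split the 468 cells into 203 at 1000 CPM or more and 265 below it, a limit set after the values were seen, with 24 cells between 500 and 2000 CPM. Of the cells below it, 36 were uninjured tdTomato+EGFP+, 31 uninjured tdTomato-EGFP+ and 78 injured tdTomato-EGFP+ cells, the remainder being injured tdTomato+EGFP+. Of the upper cells, 75 were uninjured tdTomato-EGFP+ and, after injury, 2 were tdTomato+EGFP+ and 25 tdTomato-EGFP+, the remainder being uninjured tdTomato+EGFP+. The upper cells of the uninjured sorts, tdTomato+EGFP+ first, and of the injured sorts held 99.9%, 92.1%, 41.96% and 95.5% of the *Alpl* counts of these groups. In the upper cells *Alpl* stood at 142.5 CPM (138.1 to 146.9) and 81.3 CPM (77.4 to 85.3) in the uninjured sorts and at 69.9 CPM (63.5 to 76.9) in injured tdTomato-EGFP+ cells. In the lower cells the levels were 0.388 CPM (0.106 to 0.994) from 4 counts, 21.98 CPM (18.5 to 25.9), 2.14 CPM (1.65 to 2.72) and 1.02 CPM (0.625 to 1.58) in the order above. Without the upper cells the injury difference of *Alpl* in tdTomato+EGFP+ cells was 1.18, opposite to that of the sums. Both levels were under the 10 CPM that a call needs, and the 65 counts after injury lay in 4 cells, 44.6% of them in 1. In the 34 cells removed for *Pecam1*, *Alpl* stood at 332 CPM (320.4 to 345).

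**Figure D4:**
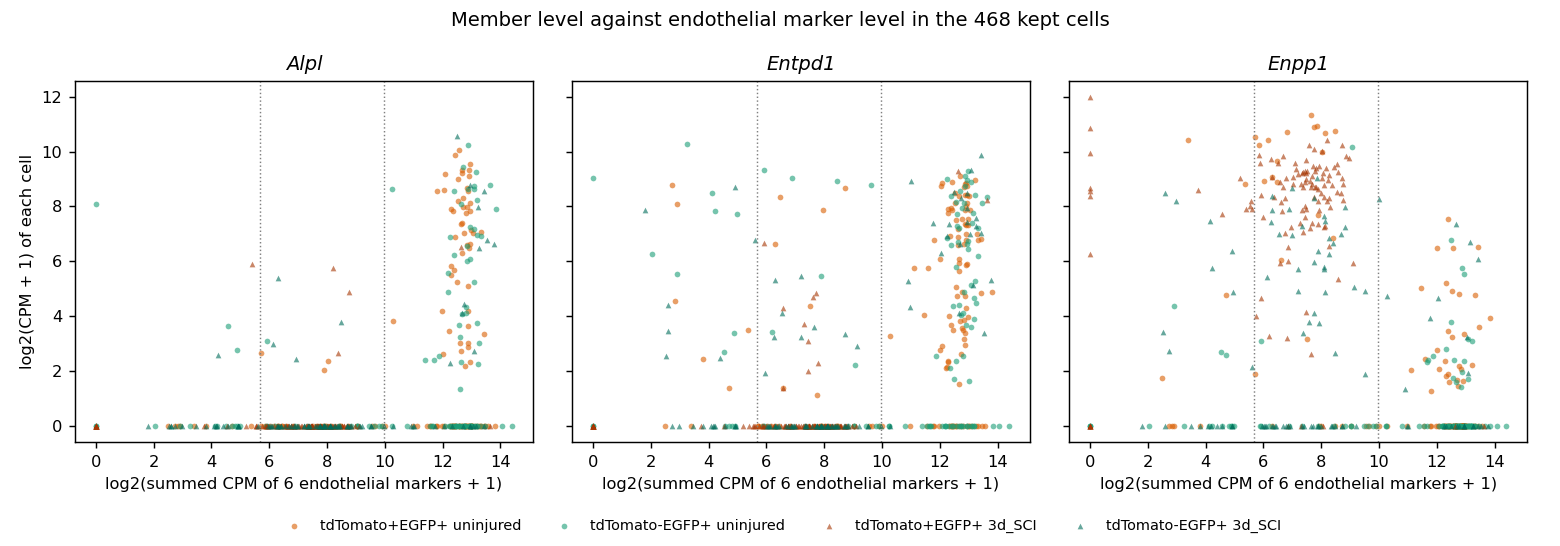
Level of *Alpl*, *Entpd1* and *Enpp1* in each of the 468 cells (vertical, log2(CPM + 1)) against the summed level of 6 endothelial markers (horizontal, log2(CPM + 1)). Circles are uninjured and triangles injured cells, and dotted lines mark 50 and 1000 CPM. Most cells with *Alpl* counts sit right of the second line, *Entpd1* on both sides and high *Enpp1* left of it.

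The same split bears on the other members. Of the *Enpp1* counts of uninjured tdTomato+EGFP+ cells, 98.5% were in the 36 lower cells, at 686 CPM, against 410.5 CPM in the lower cells after injury, a difference of -0.74. The sort difference of *Enpp1* without the upper cells was 3.78 in uninjured and 2.63 in injured cells. Its injury difference in tdTomato-EGFP+ cells went from 1.76 to 0.41. Both the 0.41 and the 3.78 rest on 48.9 CPM in the lower uninjured tdTomato-EGFP+ cells, with 98.1% of the counts in 1 cell. In the injury comparison of tdTomato-EGFP+ cells *Enpp2* (-1.24), *Alpl* (-3.51) and *Xpr1* (-1.03) were no longer past the fold, as their plate pairs gave no single direction. Before injury 1 cell held 61.2%, 97.9% and 73.1% of the counts of these 3 genes in the lower tdTomato-EGFP+ cells. *Xpr1* and *Entpd1* had 94.98% and 87.003% of their uninjured tdTomato+EGFP+ counts in the upper cells. Without those cells *Xpr1* stood at 7.67 CPM before and 6.9999 CPM after injury in tdTomato+EGFP+ cells, a difference of -0.12, whereas *Entpd1* still differed by -3.90. *Slc20a1* kept an injury difference of 3.59 in tdTomato+EGFP+ and 1.11 in tdTomato-EGFP+ cells, and *Entpd2* of -4.20 in tdTomato+EGFP+ cells. What part the endothelial RNA has in the differences that were lost was not tested.

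*Slc20a1*, the sodium-dependent importer PiT1, had the largest upward injury difference of the 10 genes in tdTomato+EGFP+ cells. It stood at 967 CPM (956 to 978) in injured tdTomato+EGFP+ cells, 133.7 CPM (129.2 to 138.2) in injured tdTomato-EGFP+ cells, and 66.7 CPM (64.1 to 69.3) and 51.7 CPM (48.98 to 54.4) in the uninjured sorts. On plates the levels were 949 and 1279 CPM, 107.04 and 157.8 CPM, 63.8 and 68.7 CPM, and 51.6 and 51.8 CPM, with no overlap between neighbours. The injury difference was 3.84 in tdTomato+EGFP+ (plate pairs 3.77 to 4.30) and 1.35 in tdTomato-EGFP+ cells (1.03 to 1.59). Its excess in tdTomato+EGFP+ cells was 2.48 in the sums and 2.60 to 2.84 in the 4 plate pairs, in which a plate effect common to both sorts cancels. The difference between sorts was 2.85 in injured cells (plates 3.01 and 3.14) and 0.36 in uninjured cells (plates 0.30 and 0.41).

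The median injured tdTomato+EGFP+ cell had 522 CPM of *Slc20a1* and the highest 4969 CPM, and no cell held over 5.56% of the counts. Of thinned cells, 87% had a count in injured tdTomato+EGFP+ (78.8 to 92.9) and 63.7% in injured tdTomato-EGFP+ (53.6 to 73.02), against 44.9% (36.1 to 53.96) and 26.1% (17.5 to 36.3) in the uninjured sorts. The counts lay in cluster 1, which held 98.2% of those of injured tdTomato+EGFP+ cells at 1142 CPM (1129 to 1156). Injured fibroblast-like tdTomato+EGFP+ cells had 104.5 CPM (95.5 to 114.03), against 93.2 CPM (86.97 to 99.8) in uninjured ones. In injured tdTomato-EGFP+ cells, cluster 1 had 261 CPM and the pericyte-like cells 143.1 CPM. *Enpp1* and *Slc20a1* were found together in 79 thinned injured tdTomato+EGFP+ cells (79%), out of 90 with *Enpp1* and 87 with *Slc20a1*. In thinned injured tdTomato-EGFP+ cells this was 23 (22.5%), out of 34 and 65. Before injury it was 13 (10.2%), out of 25 and 57, and 2 (2.17%), out of 5 and 24. Whether joint detection exceeds what the single shares give was not tested. Cycling markers moved with cluster 1 and with these groups: 6 of them summed to 1167 and 626 CPM in the injured sorts and to 8.33 and 8.52 CPM in the uninjured ones, and their part in the result was not tested.

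*Slc20a2*, the second importer (PiT2), did not follow *Slc20a1*. Its level was 67.1 CPM (64.5 to 69.7) and 76.2 CPM (72.9 to 79.5) in uninjured tdTomato+EGFP+ and tdTomato-EGFP+ cells and 27.6 CPM (25.8 to 29.5) and 22.9 CPM (21.04 to 24.8) after injury. The injury difference was past the fold in tdTomato-EGFP+ cells (-1.69, plate pairs -3.55 to -0.78). It was -1.25 in tdTomato+EGFP+ cells, with plate pairs from -1.55 to 0.05. Injured tdTomato+EGFP+ plates stood at 26.2 and 53.1 CPM and uninjured ones at 51.3 and 78.4 CPM, so they overlapped. The smooth muscle-like cells had 228 CPM and the other classes 20.2 to 76.9 CPM.

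*Xpr1*, the exporter, was lower after injury, at 40.96 CPM (38.96 to 43.03) and 59.1 CPM (56.3 to 62.1) in uninjured and 7.002 CPM (6.103 to 7.996) and 25.9 CPM (23.96 to 27.9) in injured tdTomato+EGFP+ and tdTomato-EGFP+ cells. Plates did not overlap between any of the 4 groups. Its injury difference was -2.39 in tdTomato+EGFP+ (plate pairs -2.52 to -1.99) and -1.16 in tdTomato-EGFP+ cells (-1.36 to -0.86), the latter under 1 with TMM or DESeq2 factors and -0.98 without plate 213. Thinned cells with an *Xpr1* count were 29.1% (21.4 to 37.9) of uninjured and 9% (4.198 to 16.4) of injured tdTomato+EGFP+ cells. Clusters 2 and 3 had 60.8 and 43.8 CPM, the pericyte-like cells 34.98 CPM, and the fibroblast-like cells and cluster 1 had 6.73 and 9.82 CPM.

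*Mgp*, matrix Gla protein, stood at 488 CPM (481 to 495) and 451 CPM (443 to 459) in uninjured tdTomato+EGFP+ and tdTomato-EGFP+ cells, whose plates overlapped, and at 960.3 CPM (949 to 971) and 1517 CPM (1502 to 1532) after injury. In tdTomato-EGFP+ cells the injury difference was 1.75 (plate pairs 0.70 to 2.41), and 0.76 without plate 211. In tdTomato+EGFP+ cells it was 0.97, with pairs from -0.81 to 1.15, since plate 211 had 998 CPM and plate 215 had 295 CPM. Between injured sorts the sums gave -0.66, but both plates gave more, -1.38 and -1.23, as plate 211 held 94.6% of the counts of injured tdTomato+EGFP+ but 47.6% of those of injured tdTomato-EGFP+ cells. The share of thinned cells with a count was 92.9% and 92.4% in the uninjured sorts, 80.4% in injured tdTomato-EGFP+ and 50% (39.8 to 60.2) in injured tdTomato+EGFP+ cells, whose median cell had 8.87 CPM and whose highest had 11241 CPM. Injured fibroblast-like tdTomato+EGFP+ cells had 3109 CPM (3059.8 to 3159.8), against 806 CPM (788 to 825) before injury, and cluster 1 cells of that group had 544 CPM.

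**Figure D5:**
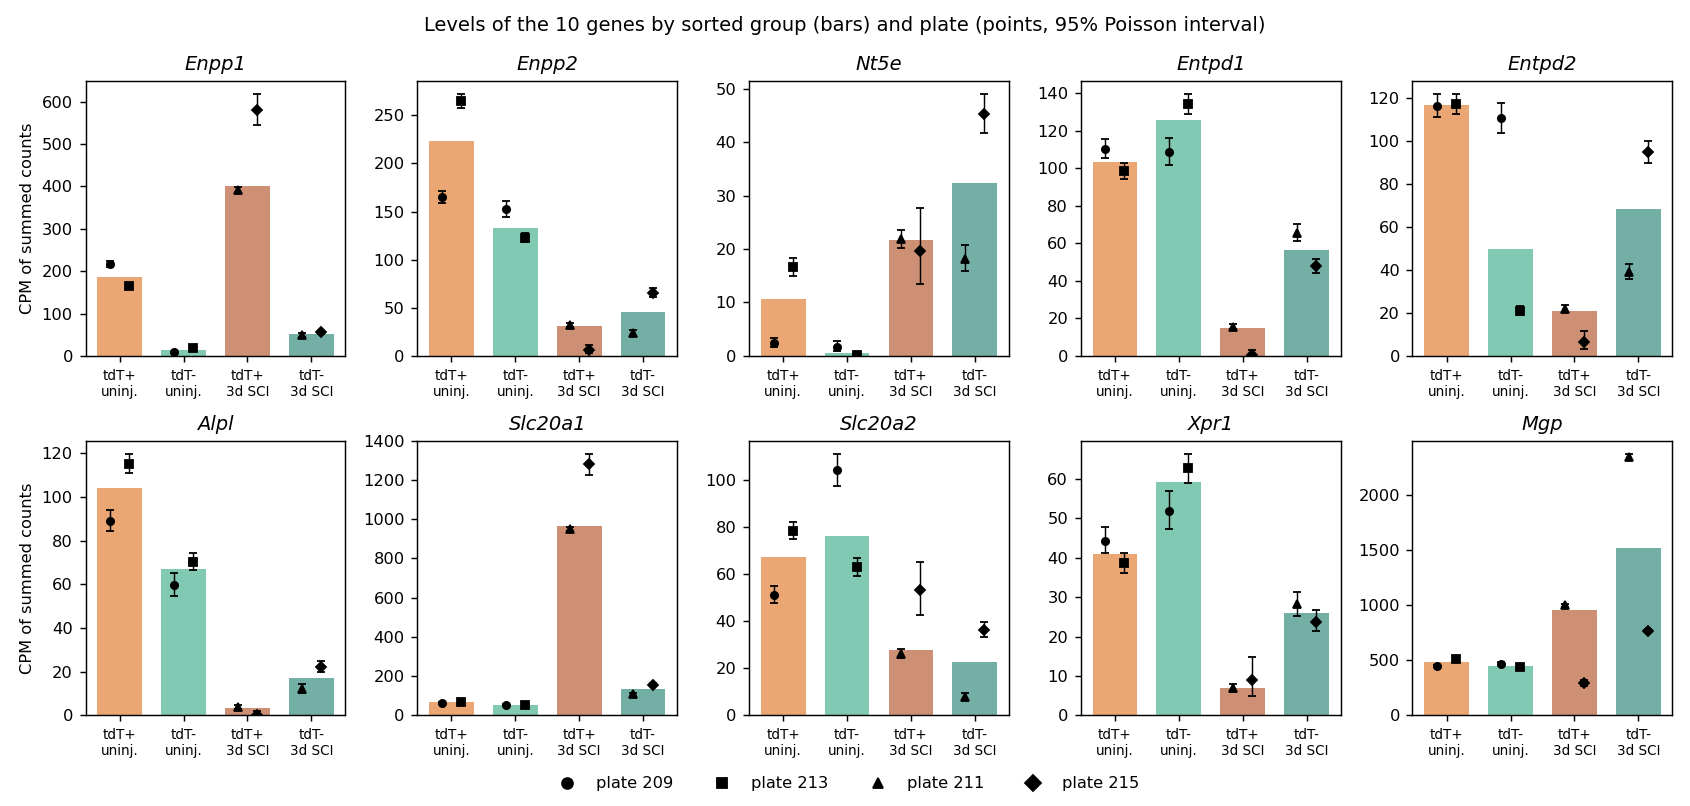
Level of the 10 genes in CPM (vertical axis, from 0) by sorted group (tdT+ and tdT- for the sorts). Bars are the summed groups, points the plates and error bars 95% Poisson intervals. *Slc20a1* is tall in injured tdTomato+EGFP+ cells, *Alpl*, *Enpp2* and *Xpr1* are low in both injured sorts, and plates of *Mgp*, *Nt5e* and *Entpd2* lie far apart.

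Members detected in at least 20% of the 421 thinned cells were compared with 10638 genes by Spearman's rho over those cells, as a description of cells that share groups and plates. *Enpp1* was most like *Pdpn* (0.76), *Col1a1* (0.74) and *Serpinf1* (0.72), and *Slc20a1* like *9830144P21Rik* (0.69), *Ccn4* (0.57) and *Bcat1* (0.55). *Enpp2* was most like *Jam2* (0.49), *Spock2* (0.49) and *Vwa1* (0.48), *Entpd1* like *Sorbs2* (0.55), *Cd93* (0.52) and *Crip2* (0.51), and *Mgp* like *Serping1* (0.40), *Cygb* (0.40) and *Psap* (0.39). For *Xpr1* the leading genes were *Grap* (0.34), *Flt1* (0.34) and *Slco1a4* (0.32). *Slc20a2* had no gene above 0.22, the value for *Parm1*.

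The wider purinergic list of 30 genes, which holds receptors, adenosine handling and further ectoenzymes, was read where a gene reached 10 CPM. Of 20 such genes between uninjured sorts, 4 were past the fold in the higher and 2 in the lower direction (all genes 4.31% and 3.61%), or 2 and 1 without the top cell of each group, and the list median was 0.01. Of 19 between injured sorts, 5 were higher and 8 lower (all genes 4.31% and 17.9%), with a median of -0.48. *Enpp3*, a relative of *Enpp1*, had 24.7 CPM in uninjured tdTomato+EGFP+ against 1.08 CPM in uninjured tdTomato-EGFP+ cells (3.63, plates 1.85 and 3.70), then 56.3 and 14.2 CPM in the injured sorts (1.91). A single cell held 54.3% of its uninjured tdTomato+EGFP+ counts, and without the top cells the uninjured sorts had 11.4 and 0.599 CPM (2.96). *P2ry1*, an ADP receptor, was at 93.996 CPM in uninjured tdTomato+EGFP+ against 16.03 CPM in uninjured tdTomato-EGFP+ cells (2.48). *Adora2a*, an adenosine receptor, was at 8.16 CPM in injured tdTomato+EGFP+ and 80.9 CPM in injured tdTomato-EGFP+ cells (-3.16).

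With injury 2 of 18 genes at 10 CPM were higher and 7 lower in tdTomato+EGFP+ cells (all genes 10.8% and 34.3%, list median -0.55), and without the top cells 6 were higher. In tdTomato-EGFP+ cells 4 of 22 were higher and 5 lower (all genes 9.52% and 16.98%, list median -0.44), or 5 and 3 without the top cells. *Ada*, adenosine deaminase, was higher in both, from 1.95 to 17.6 CPM (2.66) and from 0.9298 to 25.03 CPM (3.75). *Adora2a* was lower in tdTomato+EGFP+ cells, from 191.4 to 8.16 CPM (-4.39), and so was *Enpp4*, from 96.2 to 4.53 CPM (-4.14).

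Of 9 genes of lysophosphatidic acid handling, 5 reached 10 CPM in the comparison of uninjured sorts and 6 in each of the others. Between sorts 0 were past the fold in either state, but 2 were between injured sorts without the top cells. With injury 2 of 6 were higher and 2 lower in tdTomato+EGFP+ cells (all genes 10.8% and 34.3%). *Plpp2* and *Plpp3*, phosphatases that degrade the lipid, went from 1.41 to 21.1 CPM (3.20) and from 214 to 562 CPM (1.39). Another phosphatase of the family, *Plpp1*, went from 145.7 to 66.04 CPM (-1.13, plate pairs -1.40 to -0.01), a call lost without the top cells, and the receptor *Lpar6* from 127.5 to 29.6 CPM (-2.07). In tdTomato-EGFP+ cells 1 was higher (*Plpp2*, from 1.34 to 11.5 CPM, and to 8.74 CPM without the top cell, under the level a call needs) and 1 lower (*Lpar6*, from 116.97 to 39.5 CPM), against 9.52% and 16.98% of all genes.

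Among 22 phosphate and mineralisation genes of the table, 10 to 12 reached 10 CPM. Between sorts, 3 of 11 were higher and 2 lower in uninjured cells (all genes 4.31% and 3.61%), and 4 of 10 higher and 1 lower in injured cells (all genes 4.31% and 17.9%). With injury, 4 of 12 were higher and 3 lower in tdTomato+EGFP+ cells (all genes 10.8% and 34.3%), and 2 of 10 higher and 2 lower in tdTomato-EGFP+ cells (all genes 9.52% and 16.98%). Without the top cells the numbers higher and lower were 2 and 1, 4 and 1, 4 and 2, and 4 and 2 in the same order. *Spp1* (osteopontin), a mineral-binding protein, went from 365 to 23594 CPM with injury in tdTomato+EGFP+ cells (6.01) and from 36.7 to 1444 CPM in tdTomato-EGFP+ cells (5.26). *Tnfrsf11b* (osteoprotegerin), a decoy receptor that restrains osteoclasts, went from 1.17 to 36.5 CPM with injury in tdTomato+EGFP+ cells (4.11), the counts before injury being in 1 cell. Between uninjured sorts it was at 1.17 and 28.97 CPM (-3.79, plates -6.43 and -0.15), but 1 cell held 83.3% of the latter, and the call was lost without the top cells (0 and 4.91 CPM). *Ppa1*, a cytosolic pyrophosphatase, went from 44.1 to 294 CPM with injury in tdTomato+EGFP+ cells (2.71) and from 56.5 to 131.8 CPM in tdTomato-EGFP+ cells (1.21). *Abcc6*, whose protein promotes release of ATP, went from 35.7 to 0.482 CPM (-4.63) and from 36.9 to 5.34 CPM (-2.58). *Ank*, a pyrophosphate transporter gene, was at 51.4 CPM in injured tdTomato+EGFP+ and 16.3 CPM in injured tdTomato-EGFP+ cells (1.60).

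Of the 6 genes tied to familial brain calcification, 3 of the 5 at 10 CPM were lower with injury in tdTomato+EGFP+ cells (all genes 34.3%) and 5 of 6 in tdTomato-EGFP+ cells (all genes 16.98%), and 0 were higher. Besides *Xpr1* in both and *Slc20a2* in tdTomato-EGFP+ cells these were *Jam2*, from 294 to 37.4 CPM (-2.94) and from 282 to 66.3 CPM (-2.07), *Pdgfb*, from 88.6 to 3.501 CPM (-4.32) and from 89.2 to 20.8 CPM (-2.05), and in tdTomato-EGFP+ cells *Myorg*, from 16.3 to 3.86 CPM (-1.83). A single cell held 56.8% of the *Myorg* counts before injury, and the call was lost without the top cells (7.17 and 2.96 CPM). *Pdgfb* is made by endothelium, and the endothelial marker levels given above moved the same way. What part endothelial RNA has in the differences of this list was not tested. Without the cells at 1000 CPM of endothelial markers, *Xpr1* stood at 7.67 CPM before and 6.9999 CPM after injury in tdTomato+EGFP+ cells. *Slc20a2* stood at 154.97 and 27.7 CPM in the same cells. Between injured sorts 3 of 5 at 10 CPM were lower in tdTomato+EGFP+ cells (all genes 17.9%), *Pdgfrb* among them, at 1213 and 2491 CPM (-1.04).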

How the data were processed

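Single perivascular cells of 4 sorted groups (sort by injury state) were profiled by Smart-seq3, sequenced on a NextSeq instrument. The counts, whole numbers for each gene in each cell, were deposited by the authors as 1 table. The submitters' processing notes name mm10; the aligner, the annotation and the kind of count (reads or molecules) are not given in the sources used here. Of its cell columns, 503 matched the labels and 1465 others were not used. The 92 spike-in rows (0.0314% of counts) were left out. Cells needed 200 or more genes and under 20% mitochondrial counts, and were removed where ln(1 + counts per 10000) was above 1 for *Gfap* or *Ptprc*, or was above both 1 and the *Pdgfrb* value for *Pecam1*. This removed 1 cell on quality and 34 on *Pecam1*. An upper limit of 1200 genes, which the study states, was left out, since it would leave 33 cells. No 2 cell columns held identical values. Doublets were not called: cells were sorted singly into wells, and whether a well held attached cells was not tested.

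Counts were summed per group and plate in Python 3.11.15 with pandas 2.3.3, scaled to CPM and compared as log2(CPM + 1), which understates changes of genes near 1 CPM. Each group counts as 1 sample, so no model was fitted and no p-value computed; edgeR 4.0.16 and DESeq2 1.42.0 gave scaling factors only. Groups were compared between sorts within a state and between states within a sort. For shares, cells with 20000 or more counts (421 of 468) were thinned to 20000. Clusters came from Seurat 5.3.0 in R 4.3.3 (2000 variable genes, 20 components, resolution 0.5, the members and pathway lists left out). A marker was raised at a log2 difference of 0.5 with a count in 50% of the cells, thresholds set after the values were seen. PCR reads without known molecular identifiers are not independent molecules, so intervals and limits cover counting error only. The comparison code was tested on simulated data. The members and gene lists were chosen with earlier results of these data known. The text names the 10 members, up to 4 genes per list and comparison by size among those past the fold, and the 3 genes most like each well detected member. Alternatives were other scalings, pseudocounts, filters and depths, and leaving out plates or cells; leaving out the top cell of each pathway gene was added after seeing the data.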

Additional observations from a re-analysis of the deposited data

Results flagged for a closer look

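The 34 cells removed for *Pecam1* (21 uninjured tdTomato+EGFP+, 11 uninjured tdTomato-EGFP+ and 2 injured tdTomato-EGFP+) lie outside the comparisons, and *Alpl* stood at 332 CPM in them (interval 320.4 to 345, 2888 counts, 20 cells with a count). That was above every kept group, the highest of which, uninjured tdTomato+EGFP+, stood at 104.4 CPM. Their 6 endothelial markers summed to 8322 CPM and their 10 pericyte markers to 8103 CPM.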

How the results depend on the processing

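Of the 40 member differences, 25 were past the fold, and of 307 alternative values of those 25, 7 reversed, each on removal of cells by endothelial markers. Removal at 1000 CPM was chosen after seeing the data; removal at 50 CPM leaves 8, 15, 21 and 19 cells. *Alpl* between injured sorts became 3.43 (50 CPM) and 0.63 (1000 CPM) and with injury in tdTomato+EGFP+ cells 3.84 and 1.18. At 50 CPM these rest on 29 counts in 1 injured tdTomato+EGFP+ cell, with 0 counts in the 8 uninjured ones, and at 1000 CPM on levels of 0.388 to 2.14 CPM. *Xpr1* with injury in tdTomato+EGFP+ cells became 1.87 (50 CPM), *Slc20a1* with injury in tdTomato-EGFP+ cells -0.71 (50 CPM), and *Enpp1* with injury in tdTomato+EGFP+ cells -0.74 (1000 CPM). The *Xpr1* value rests on 4 counts (1.28 CPM) before and 16 counts (7.37 CPM) after injury, both under the 10 CPM that a call needs. Of the 427 *Slc20a1* counts before injury, 59.7% were in 1 of 15 cells. The cause of the reversals was not tested. Members past the fold between uninjured sorts went from 3 to 6 and 7, and with injury in tdTomato-EGFP+ cells from 9 to 5 and 5.

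The median member difference with injury in tdTomato+EGFP+ cells was -2.20 with the mean of each cell's CPM, -1.18 with TMM, -1.04 with DESeq2 factors, -1.31 with a pseudocount of 10, -0.66 and -0.75 without cells at 50 and 1000 CPM, and -1.40 without plate 211. With injury in tdTomato-EGFP+ cells it was -1.18 and -1.05 without those cells, 0.06 without plate 209 and -0.81 without plate 213, and between uninjured sorts 0.09 without plate 213. Without plate 213 *Nt5e* and *Entpd2* left the calls between uninjured sorts and *Enpp1* those with injury in tdTomato+EGFP+ cells; without plate 215 *Entpd2* left those between injured sorts. With injury in tdTomato-EGFP+ cells, *Enpp2* and *Mgp* left the calls without plate 211, *Entpd1* and *Xpr1* without plate 213 and *Entpd1* without plate 215. The median share of cells with a count was 51.1%, 47.2%, 43.9% and 40.3% before thinning, in uninjured tdTomato+EGFP+ and tdTomato-EGFP+ cells and then in the injured sorts. No paired analysis was possible because the replicate numbers only name cells and no result comes from a test; both sorts share plates, and their differences within each plate are given as values.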

Other observations

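In the 34 cells removed for *Pecam1*, *Entpd1* stood at 245 CPM (interval 235 to 256), *Enpp2* at 155.5 CPM (147.3 to 164.03), *Slc20a1* at 94.5 CPM (88.1 to 101.2) and *Xpr1* at 71.1 CPM (65.6 to 76.97). *Enpp1*, *Entpd2* and *Nt5e* stood at 9.09, 7.83 and 7.14 CPM.

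*Enpp1* and *Alpl*, which make and remove pyrophosphate, were found together in 4 thinned uninjured tdTomato+EGFP+ cells (3.15%), out of 25 with *Enpp1* and 43 with *Alpl*. They were together in 2 uninjured tdTomato-EGFP+ cells (2.17%), out of 5 and 23. After injury they were together in 1 tdTomato+EGFP+ cell (1%), out of 90 and 2. In injured tdTomato-EGFP+ cells it was 0, out of 34 and 7 (exact binomial interval up to 3.55%).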
